A study of Mus musculus with 6 samples.

Results

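The NF-kB subunits and inhibitors are 10 genes, taken by symbol from the 20591 genes of a table of expression in B cells sorted from mouse colons. The 5 subunit genes are Rel, Rela, Relb, Nfkb1 and Nfkb2, and the 5 inhibitor genes are Nfkbia, Nfkbie, Nfkbiz, Tnfaip3 and Tnip1. All 10 were in the table and all 10 passed the filter on low values. RNA sequencing was done on 3 libraries from mice given lenvatinib, an inhibitor of the receptor tyrosine kinases for VEGF and FGF and of several related kinases, and on 3 libraries from mice given DMSO, the solvent control. Every library is labelled as B cells. The labels and design text used here do not state the strain, age, dose, duration or inflammatory state of the mice. The libraries are numbered as biological replicates, but nothing says that each came from a separate animal, so a p-value covers only how far these 6 libraries vary, which could be technical variation.

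NF-kB transcription factors are dimers of Rel family subunits. In resting cells IkB proteins hold the dimers in the cytoplasm. Signals from the B cell receptor, CD40 and Toll-like receptors activate the IKK kinase complex, which marks the IkB proteins for destruction and frees the dimers, and a slower route through the kinase NIK, encoded by Map3k14, converts the Nfkb2 precursor into its active form and releases RelB. In B cells c-Rel, the product of Rel, is known for its part in activation and proliferation. Several of the inhibitor genes are themselves induced by NF-kB and so provide negative feedback.

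Because of that feedback, the promoters of the members were read for kappaB motifs, the sequences that NF-kB dimers bind. RefSeq promoter windows (build GRCm38.p6, 250 bases before to 50 bases after a transcript start) matched 7 of the 10 members by symbol, with 10 windows in all, and Nfkb1, Nfkbiz and Relb had no entry. The 10-base kappaB consensus GGGRNNYYCC (R is A or G, Y is C or T, N is any base) was searched on both strands. Overlapping matches were counted as 1 stretch. Nfkb2 had 3 windows, of which 2 overlap and share a match, and Tnfaip3 had 2. The consensus was found in 8 of the 10 windows, beside 8.49 percent of all 32544 distinct windows. Counted by gene, at least 1 window held it in 6 of the 7 members, Rel, Nfkb2, Nfkbia, Nfkbie, Tnfaip3 and Tnip1. A second form, GGGNNTTTCC, was also searched on both strands. It allows any base at position 4, so it is not a subset of the consensus. This form was present in 6 of the 10 windows, beside 1.61 percent of all windows. The 6 windows belong to Rel, Nfkb2, Nfkbia and Tnfaip3, and in these genes the form overlapped a match to the consensus. The 130 bases that end just before a transcript start are printed for the 4 genes whose expression passed the test between the groups and for Rela, which came closest to it. For Tnfaip3 the window that holds matches is shown, and the window of its other start held none. Capitals mark the consensus matches, and each sequence reads 5′ to 3′ on the strand of its gene. The expression values were made by the authors on another build, GRCm39, so these positions hold for GRCm38.p6 alone.
Rel, minus strand, chr11:23770970-23771099: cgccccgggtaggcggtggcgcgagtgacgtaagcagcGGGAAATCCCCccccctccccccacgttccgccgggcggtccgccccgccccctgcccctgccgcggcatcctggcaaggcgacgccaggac
Nfkbia, minus strand, chr12:55492648-55492777: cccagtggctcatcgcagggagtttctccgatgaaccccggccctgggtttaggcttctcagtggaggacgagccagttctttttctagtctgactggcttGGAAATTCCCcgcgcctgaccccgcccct
Tnfaip3, minus strand, chr10:19015411-19015540: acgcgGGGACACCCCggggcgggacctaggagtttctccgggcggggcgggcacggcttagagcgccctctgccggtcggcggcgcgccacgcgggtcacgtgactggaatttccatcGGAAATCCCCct
Tnip1, minus strand, chr11:54962941-54963070: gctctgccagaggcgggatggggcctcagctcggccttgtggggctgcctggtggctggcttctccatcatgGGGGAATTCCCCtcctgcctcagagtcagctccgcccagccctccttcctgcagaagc
Rela, plus strand, chr19:5637411-5637540: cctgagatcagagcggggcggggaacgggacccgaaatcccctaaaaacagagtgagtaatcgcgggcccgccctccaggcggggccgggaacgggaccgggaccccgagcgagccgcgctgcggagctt
The match in Rel lay 92 to 82 bases before the start, that in Nfkbia 29 to 20 bases and that in Tnip1 58 to 47 bases, and the matches of Tnfaip3 lay 125 to 116 and 12 to 3 bases before it. A match is a description of the letters and not evidence of binding, and the lack of one in Rela says only that these letters are not in this window. Of the 6 genes with a match, in the test below Rel, Nfkbia and Tnfaip3 were lower with lenvatinib, Tnip1 was higher, and Nfkb2 and Nfkbie did not pass.

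Expression is given as scaled FPKM, the length- and depth-normalized fragment counts (FPKM) deposited by the authors, brought to a common scale across libraries. Values after ± are SDs over n = 3 libraries. Differences were tested with limma on log2(scaled FPKM + 1) over all 9936 genes that passed the filter, with a threshold of 0.05 on the Benjamini-Hochberg adjusted p, and log2 changes are lenvatinib minus DMSO. Of the 10 members, 3 were lower (Rel, Nfkbia, Tnfaip3), 1 was higher (Tnip1) and 6 did not pass. Over all tested genes 18.7 percent passed, 10.5 percent higher and 8.22 percent lower, so the 4 calls among 10 members are read against that share. Among subunits 1 of 5 passed, close to the share over all genes, and among inhibitors 3 of 5. The libraries of the groups did not overlap for 7 members, 3 of them higher and 4 lower with lenvatinib, and over all tested genes this held for 37.1 percent, 18.9 percent higher and 18.2 percent lower.

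**Figure D1:**
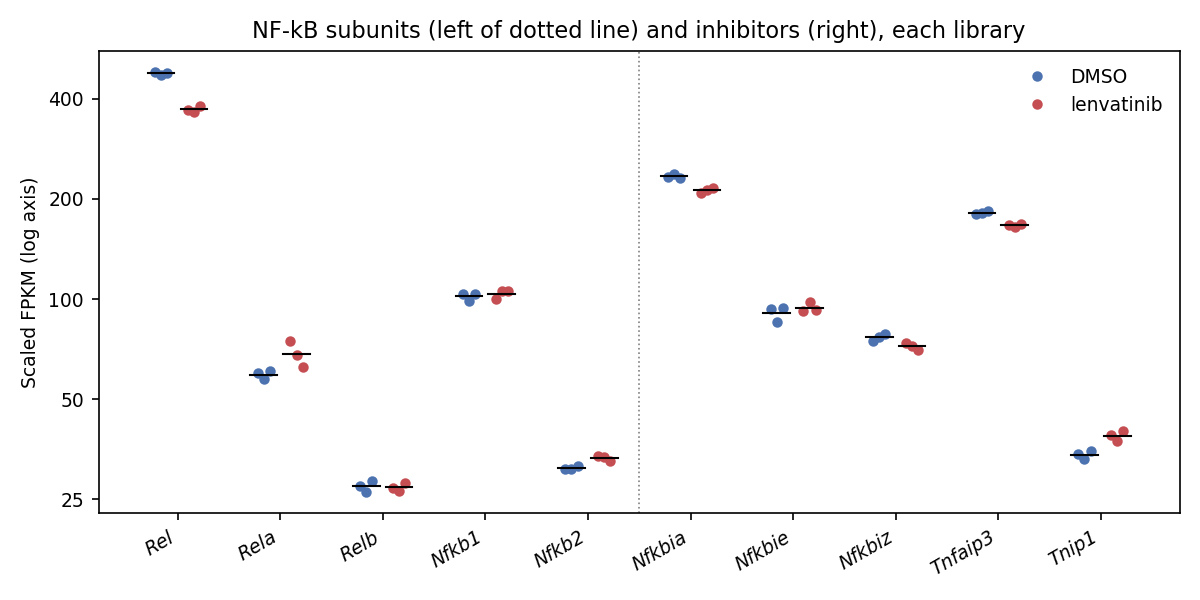
Scaled FPKM of each member in each library on a log axis, with 3 DMSO and 3 lenvatinib libraries per gene and a bar at each group mean. Rel stands highest, at a mean of 477 in DMSO and 371 in lenvatinib libraries, and its groups are well apart, while the points of Relb, Nfkb1 and Nfkbie overlap between the groups.

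Among the subunits, Rel, which encodes c-Rel, fell. It stood at 482, 471 and 478 in DMSO replicates 1, 2 and 3 and at 371, 364 and 379.5 in lenvatinib replicates 1, 2 and 3. Every lenvatinib library lay far below every DMSO library, and the gap was wider than the spread within either group. The mean fell by 22.1 percent, from 477 ± 5.87 to 371 ± 7.62, a log2 change of -0.36 (SE 0.0261, 95% interval -0.42 to -0.30, limma adjusted p = 2.35e-05). Of the 9936 tested genes 337 fell further. It was called lower in each of the 17 other settings tried, with log2 changes between -0.39 and -0.30.

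Rela, which encodes the transactivating subunit p65 of the classical heterodimer, had the opposite sign. Its values were 59.8, 57.5 and 60.6 in the DMSO libraries and 74.8, 67.7 and 62.5 in the lenvatinib libraries. The groups did not overlap, but lenvatinib replicate 3 lay close to the highest DMSO library and the lenvatinib values were widely spread, with an SD of 6.2 around a mean of 68.4 against 1.6 around 59.3. The log2 change was 0.20 (SE 0.0609, 95% interval 0.06 to 0.34), and the limma adjusted p of 0.0508 missed the threshold. It passed in 5 of the 17 other settings, among them the fit without lenvatinib replicate 3 (log2 change 0.26, adjusted p = 0.0131), and the adjusted p ranged from 0.000568 to 0.15 over all of them.

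The remaining subunits gave no call. Nfkb2, whose precursor is processed in the slower, NIK-dependent route, was at 30.8, 30.8 and 31.4 in DMSO and at 33.7, 33.6 and 32.5 in lenvatinib libraries. Its groups did not overlap, and the log2 change was 0.10 (95% interval 0.0023 to 0.20, limma adjusted p = 0.146). The adjusted p passed in 1 of the 17 other settings, limma-voom on recovered reads, at 0.0294. Nfkb1, the precursor of the usual partner of RelA and c-Rel, was at 103.5, 98.7 and 103.6 against 99.99, 105.8 and 105.9, and its groups overlapped (log2 change 0.03, 95% interval -0.06 to 0.11). Relb, the partner of processed Nfkb2, was at 27.4, 26.3 and 28.45 against 27.0, 26.5 and 28.0, with a log2 change of -0.01 (95% interval -0.12 to 0.10). For these last genes the intervals exclude changes as large as that of Rel, but a p above the threshold does not show that the levels are equal.

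**Figure D2:**
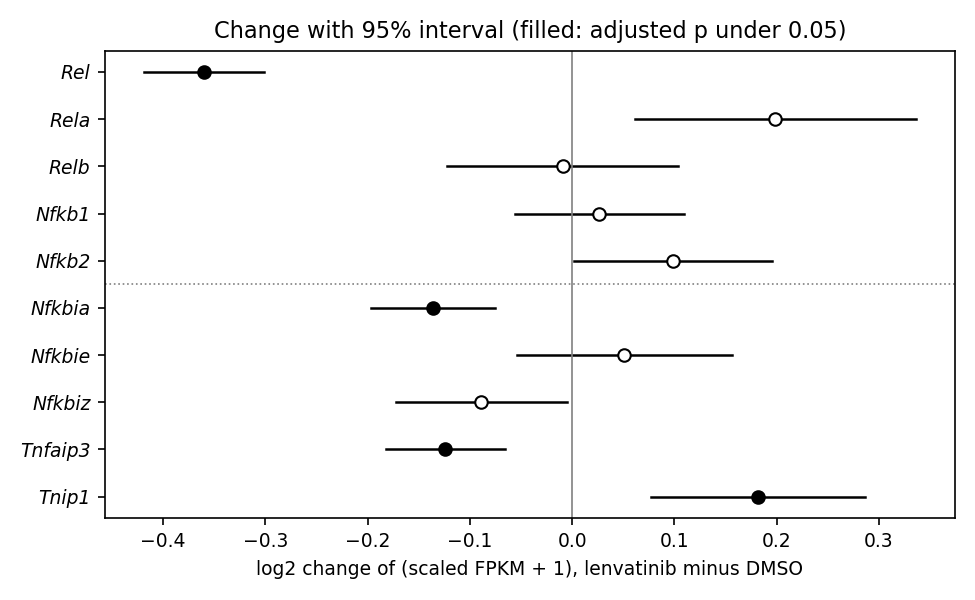
The log2 change of each member, lenvatinib minus DMSO, with its 95% interval from limma (n = 3 libraries per group). Filled points passed the adjusted threshold: Rel at -0.36, Nfkbia at -0.14, Tnfaip3 at -0.12 and Tnip1 at 0.18, whereas Rela at 0.20 is open, with the widest interval of the 10.

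The inhibitors moved less than Rel. Nfkbia encodes IkB-alpha, the inhibitor that is destroyed and resynthesised most quickly after stimulation. It was at 233, 237 and 231 in DMSO and at 209, 213 and 216 in lenvatinib libraries. All lenvatinib libraries were lower, and the mean fell by 9.06 percent, from 234 ± 3.27 to 213 ± 3.8 (log2 change -0.14, SE 0.0269, limma adjusted p = 0.00763). Tnfaip3 encodes A20, a ubiquitin-editing enzyme that stops signalling upstream of IKK. It was at 181, 181 and 183 against 167, 165 and 168, again with no overlap, and its mean fell by 8.29 percent, from 182 ± 1.5 to 167 ± 1.84 (log2 change -0.12, SE 0.0258, limma adjusted p = 0.00997). Both calls held in 16 of the 17 other settings and were lost when limma was run with neither trend nor robust moderation, with adjusted p of 0.102 for Nfkbia and 0.118 for Tnfaip3.

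Tnip1 encodes ABIN1, a ubiquitin-binding partner of A20, and it rose where its partner fell. Its values were 34.2, 33.0 and 35.0 in DMSO and 38.9, 37.4 and 40.1 in lenvatinib libraries. The groups did not overlap, with means of 34.1 ± 0.989 and 38.8 ± 1.37 (log2 change 0.18, SE 0.0465, limma adjusted p = 0.0253). This call was less firm than the others: it was lost in 7 of the 17 other settings, including the fits without DMSO replicate 1 or 2 and without lenvatinib replicate 1 or 3, with an adjusted p of up to 0.0831. Within a library the ratio of Tnfaip3 to Tnip1 was 5.27, 5.49 and 5.24 with DMSO and 4.29, 4.41 and 4.20 with lenvatinib.

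Nfkbiz and Nfkbie gave no call. Nfkbiz encodes IkB-zeta, an atypical nuclear member of the family that can also act as a coactivator. It was at 74.7, 77.1 and 78.7 in DMSO and at 74.0, 72.3 and 70.3 in lenvatinib libraries, without overlap but with lenvatinib replicate 1 next to DMSO replicate 1 (log2 change -0.09, 95% interval -0.17 to -0.0049, limma adjusted p = 0.134). Nfkbie encodes IkB-epsilon, which holds c-Rel and RelA dimers in the cytoplasm. It was at 93.5, 85.1 and 93.9 against 91.8, 98.0 and 92.5, and DMSO replicate 2 stood below the rest (log2 change 0.05, 95% interval -0.05 to 0.16, limma adjusted p = 0.501).

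Set against each other, inhibitors and subunits were separated by a gap in mean level that overlapped between DMSO and lenvatinib libraries. In the DMSO libraries the mean log2(scaled FPKM + 1) of the 5 inhibitors exceeded that of the 5 subunits by 0.39, 0.41 and 0.40. In the lenvatinib libraries it did so by 0.36, 0.39 and 0.40, so the ranges overlapped. The size and direction of this gap within a library depend on the gene lengths the authors divided by, described below. With the length of the longest coding transcript, Relb stood at 108 and Nfkb2 at 112 in DMSO libraries, not at 27.4 and 31.0. Which set stood higher is therefore not settled by these values. The median log2 change was 0.03 for the subunits and -0.09 for the inhibitors, beside 0.01 for all tested genes. Of the members that passed, the subunit Rel was lower, and of the inhibitors Nfkbia and Tnfaip3 were lower and Tnip1 was higher. The summed level gave another picture because Rel outweighs the other subunits: the subunit sum fell by 13.3 percent, from 697 ± 11.0 to 604 ± 5.47 FPKM, and the inhibitor sum by 5.33 percent, from 617 ± 4.2 to 584 ± 3.6, a description with no test. Without Rel the subunit sum was 219.6 ± 5.63 in DMSO and 233 ± 3.46 in lenvatinib libraries. These sums, and the size of their changes, also depend on the gene lengths.

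The make-up of the subunit transcripts differed accordingly. Rel made up 68.5, 68.8 and 68.1 percent of the subunit sum in the DMSO libraries and 61.1, 60.9 and 62.4 percent in the lenvatinib libraries. Rela made up 8.49, 8.41 and 8.63 percent with DMSO and 12.3, 11.3 and 10.3 percent with lenvatinib. The ratio of Rel to Rela was 8.07, 8.19 and 7.89 with DMSO and 4.95, 5.38 and 6.07 with lenvatinib, so every lenvatinib library lay below every DMSO library. The ratio of Nfkbia to Rel moved the other way, from 0.483, 0.504 and 0.483 to 0.563, 0.583 and 0.570, since Rel fell further than its inhibitor. Shares add up to a fixed total, so the lower share of Rel raises the others, and these values follow from the levels above rather than adding to them.

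**Figure D3:**
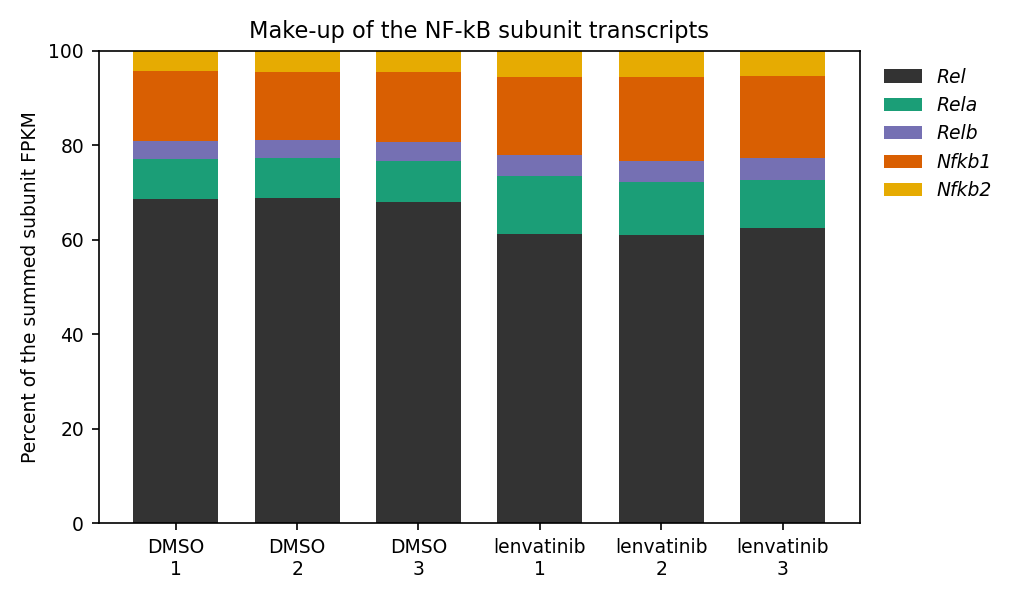
Percent of the summed scaled FPKM of the 5 subunits that each subunit takes, 1 bar per library, each bar adding to the whole. The Rel segment covers 68.1 to 68.8 percent in the DMSO bars and 60.9 to 62.4 percent in the lenvatinib bars, and the Rela segment is wider in each lenvatinib bar.

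The order of the levels was the same in both groups, from Rel through Nfkbia, Tnfaip3, Nfkb1, Nfkbie, Nfkbiz, Rela, Tnip1 and Nfkb2 to Relb. Neighbours in this order did not overlap between their libraries, except Nfkbiz and Rela in the lenvatinib group. Rel ranked 138th of the 9936 tested genes by mean level, and Relb, the lowest member, 2274th. This order depends on the gene lengths the authors divided by. The lengths recovered from the FPKM steps were 11300 bases for Nfkb2 and 8706 bases for Relb, 3.6 and 3.94 times the longest coding transcript of these genes in the GENCODE vM21 annotation (3141 and 2209 bases), while for the other 8 members the ratio lay between 0.946 and 1.24. Recomputed with the length of that transcript, Nfkb2 stood at 112 in DMSO and 119.7 in lenvatinib libraries and Relb at 108 and 107, beside Nfkb1 at 105 and 107. Nfkb2 then ranked 4th of the 10 members in both groups. The share of Rel in the subunit sum was then 54.5 percent in DMSO and 47.0 percent in lenvatinib libraries. The change of a single gene between the groups does not depend on its length. Sums and shares over several genes do depend on the lengths, as do their changes.

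The members had between 2918 reads (Tnip1 in DMSO replicate 1) and 109363 reads (Rel in DMSO replicate 2) per library, where counting error alone gives a coefficient of variation of 0.357 percent for Rel to 1.85 percent for Tnip1. The spread between replicates, which includes that error, ran from 0.826 percent for Tnfaip3 in DMSO to 9.07 percent for Rela in lenvatinib libraries. Rela had 5328 reads or more in each library, for which counting error is 1.37 percent. Reads of Nfkb2 are less certain, since its exons overlap genes on the opposite strand in GENCODE vM21, Psd among them, and no source used here says whether the counting used strand.

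The other genes of the pathway were taken from lists by role. Of 4 further IkB proteins 0 rose and 1 fell (25 percent, beside 8.22 percent of all tested genes). The gene that fell was Nfkbid, an atypical nuclear IkB, from 246 ± 1.93 to 228 ± 1.3 (log2 change -0.11, limma adjusted p = 0.0144). Its call was lost in 3 of the 17 other settings, among them the fit without DMSO replicate 1. The other 3, Nfkbib, Nfkbil1 and Bcl3, did not pass. Nfkbib, which encodes IkB-beta, was at 32.8 ± 1.52 and 36.0 ± 1.71 (limma adjusted p = 0.124). Of 14 IKK and upstream kinase genes 0 rose and 1 fell (7.14 percent, near the 8.22 percent of all tested genes), with a median log2 change of -0.09. The gene that passed was Prkcb, the protein kinase C that links the B cell receptor to NF-kB, from 54.5 ± 1.21 to 49.1 ± 2.03 (limma adjusted p = 0.0438), and its call was lost without any 1 of the 6 libraries. The IKK scaffold gene Ikbkg stood at 6.56 ± 0.456 and 5.31 ± 0.233 (limma adjusted p = 0.0527), Map3k7, the kinase TAK1, at 18.5 ± 0.721 and 16.7 ± 0.274 (0.107), and Chuk, the catalytic subunit IKK-alpha, at 26.4 ± 1.04 and 24.3 ± 1.12 (0.188).

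Among ubiquitin and adaptor regulators 25 of 26 genes were tested, Tnip3 being under the filter, and 3 rose and 6 fell, with a median log2 change of -0.02. These are 12.0 and 24.0 percent, beside 10.5 and 8.22 percent of all tested genes, so the share that rose was near that of all genes. Malt1, the protease that couples the B cell receptor to IKK, fell from 144 ± 2.25 to 116 ± 1.15, and Birc3, a ubiquitin ligase and NF-kB target, from 157 ± 3.97 to 133 ± 0.707. Traf5, an adaptor of TNF receptors, fell from 22.8 ± 0.697 to 17.1 ± 1.56, whereas the related Traf1 rose from 22.0 ± 0.534 to 28.7 ± 0.963 (limma adjusted p at most 0.00394 for these 4 genes). Traf1 and Tnip1 rose while Birc3, Nfkbia and Tnfaip3 fell.

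Textbook target genes of NF-kB held calls in both directions. Of 32 tested genes 13 rose and 9 fell, 40.6 and 28.1 percent, beside 10.5 and 8.22 percent of all tested genes. Nfkbid, counted above among the IkB proteins, is also 1 of these 9. The median log2 change was 0.12. The 4 with the smallest p all fell: Tap1, a peptide transporter of antigen presentation that interferon also induces, from 114 ± 3.48 to 78.8 ± 1.45, Irf4, a transcription factor of activated B cells, from 136 ± 1.79 to 104 ± 0.536, Myc from 170.2 ± 1.29 to 135 ± 0.988, and Ccr7, a chemokine receptor, from 653 ± 3.49 to 539 ± 3.33 (limma adjusted p at most 4.06e-05). Among those that rose, chosen after their values were seen, Bcl2a1d, a survival gene, went from 37.7 ± 3.06 to 59.0 ± 4.16, Ccnd2, which encodes cyclin D2, from 22.3 ± 0.638 to 31.5 ± 0.415, and the chemokine gene Ccl4 from 15.0 ± 1.77 to 26.0 ± 3.54 (limma adjusted p at most 0.00114). Reads of Bcl2a1d can be shared with its near-identical copies Bcl2a1a and Bcl2a1b, so its value is uncertain. Some target genes that rose had low levels. With a filter at a mean scaled FPKM of 5, 9 target genes rose and 9 fell of 27 tested. Under that filter 887 rose and 814 fell of all 6697 genes tested. Immediate early genes, which respond within minutes to stimulation and to tissue handling, rose in 0 and fell in 5 of 13 cases (38.5 percent), with Egr1 from 118 ± 2.29 to 80.4 ± 3.25 and Fos, chosen after its values were seen, at 167.1 and 167.3.

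**Figure D4:**
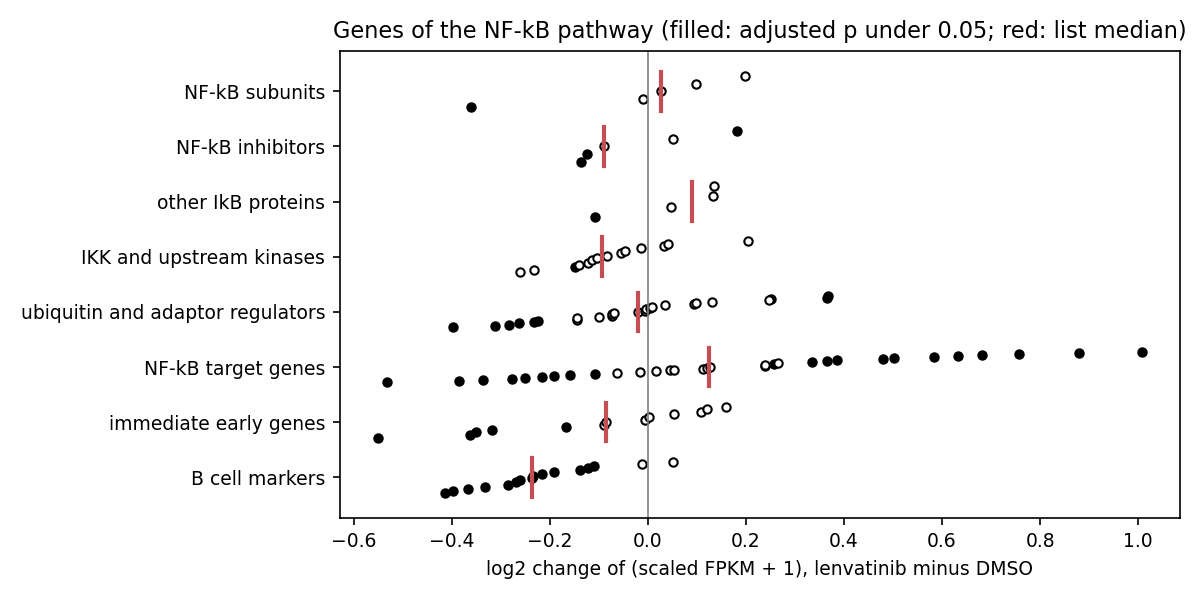
The log2 change, lenvatinib minus DMSO, of each tested gene in the lists of the NF-kB pathway, of immediate early genes and of B cell markers, with filled points for genes past the adjusted threshold and a red bar at the median of each list. Target genes spread to both sides of 0 around a median of 0.12, and B cell markers lie mostly to the left, with a median of -0.24.

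These differences were measured in libraries whose cell type markers also differed. The 16 B cell markers were all present, and 14 fell and 0 rose, with a median log2 change of -0.24 and a range of -0.41 to 0.05. Their summed level lay between 3734 and 3776 FPKM in DMSO and between 3167 and 3217 in lenvatinib libraries and fell by 15.3 percent. Rel, in comparison, fell by 22.1 percent, Nfkbia fell by 9.06 percent and Tnfaip3 fell by 8.29 percent. Their log2 changes, -0.36 for Rel, -0.14 for Nfkbia and -0.12 for Tnfaip3, lay within the range of the single B cell markers. The summed level of 14 T cell markers lay between 131 and 136 in DMSO and between 217 and 227 in lenvatinib libraries, with 9 higher and 1 lower of 12 tested. The T cell marker that fell, Cd2, had the highest level and went from 80.2 ± 1.31 to 69.8 ± 4.56. It made up most of the sum in DMSO libraries, so the sum understates the rise of other T cell markers. The next highest, Lck and Cd3g, rose from 24.0 ± 1.45 to 37.6 ± 0.748 and from 8.21 ± 1.16 to 44.4 ± 2.45. The summed level of 12 markers of natural killer and innate lymphoid cells lay between 39.8 and 45.0 in DMSO and between 201 and 209 in lenvatinib libraries, with 10 of 10 tested higher. That of 13 colon epithelial markers lay between 14.3 and 15.5 and between 63.2 and 66.9, with 8 of 8 tested higher. Of the other lists, 2 of 10 tested macrophage and dendritic cell markers, 2 of 3 neutrophil markers and 1 of 5 plasma cell markers rose and 0 fell, and of 2 tested endothelial and fibroblast markers 1 rose and 1 fell. No marker of these lists was at 0 in every library. All of these cells express NF-kB genes, and the part of their markers in the changes of the members was not tested. In RNA from bulk cells, fewer cells of a type and less RNA per cell cannot be told apart.

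**Figure D5:**
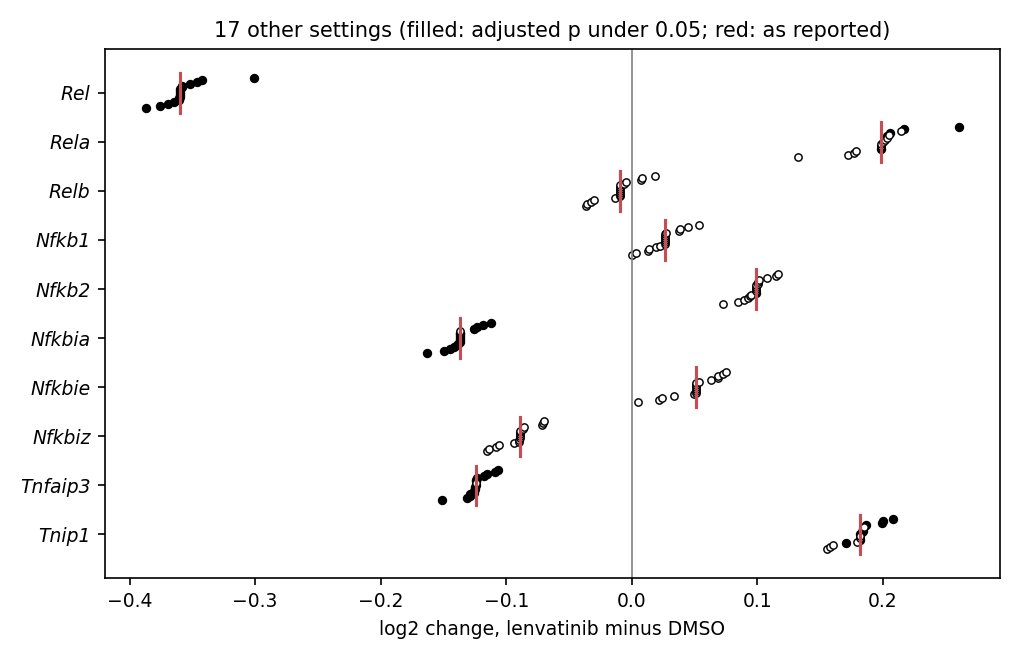
The log2 change of each member under 17 other settings of the analysis, among them leaving out each library in turn, with a red bar at the reported value and filled points where the adjusted p was under 0.05. Rel stays between -0.39 and -0.30 and filled throughout, the points of Nfkbia and Tnfaip3 are filled in 16 of 17 settings, and those of Tnip1 and Rela are mixed.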

How the data were processed

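Per the labels' protocols, TRIzol was used for total RNA and the VAHTS Universal V10 kit for the libraries. Reads were counted with HTSeq on GRCm39, per the submitters' processing notes; the use of strand, HTSeq version, annotation and aligner are not given in the sources used here. FPKM values deposited by the authors were matched to samples by the column names in the sample descriptions. They were divided by median-of-ratios factors, and genes that reached a scaled FPKM of 1 in 3 or more of the 6 libraries were tested in limma 3.58.1 (R 4.3.3) on log2(scaled FPKM + 1), with trend and robust moderation and two-sided, Benjamini-Hochberg adjusted p-values. Whole reads and gene lengths were recovered from the FPKM steps for 19714 of 19715 genes with a value (tolerance 1e-05), giving totals of 26635279 to 31655500 reads per library. The procedures were tested on simulated data. The members and lists were chosen with earlier results of these data known. All members are named, with up to 4 tested genes of the smallest p from each pathway list. Alternatives were other pseudocounts, filters, scalings and moderation, library weights, a replicate block, limma-voom and leaving out each library.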

Additional observations from a re-analysis of the deposited data

How the results depend on the processing

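The call of Rel kept its direction and its side of the threshold under all 17 alternatives, and 1 of 5 subunits passed in 12 of them. With Rela, 2 subunits passed with FPKM as deposited, with library weights and with a mean scaled FPKM of at least 5, and with Rela and Nfkb2 3 passed in limma-voom; leaving out 1 library gave 1 to 2. The number of inhibitors that passed was 0 without trend and robust moderation, for which the cause was not tested, and 2 to 3 when 1 library was left out. Signs reversed for members that never passed: the log2 change of Relb was 0.0080 with FPKM as deposited, 0.018 without DMSO replicate 3 and 0.0071 without lenvatinib replicate 2, with a range of -0.037 to 0.018 when 1 library was left out, and that of Nfkb1 was -0.000125 with the sum of FPKM as the scale. The number of genes called in all was 1856, with 1039 higher and 817 lower; it was 859 and 978 on the scale of the FPKM sum, 916 and 933 with quantile normalization, 1181 and 721 with FPKM as deposited, and 1234 and 1272 in limma-voom. The total ran from 1264 without a filter on low values to 2506 in limma-voom, and from 1335 to 1500 when 1 library was left out. Libraries with the same replicate number did not deviate together (correlations of -0.0067, 0.0065 and -0.0053), so no shared replicate effect was seen. Such correlations cannot show whether the samples were paired by design. With the replicate block 1542 genes passed, and no member changed its call. The length of the longest coding transcript, chosen after seeing the data, moved the share of Rel in the subunit sum to 54.5 and 47.0 percent.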
